A study of Mus musculus with 2 samples.

Results

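The aminoacyl-tRNA synthetases were described in the gastrocnemius, a calf muscle, of aged female mice. Members were chosen by name alone: genes with a protein-coding transcript whose symbol is 1 capital letter followed by ars, or by ars and 1 or 2, or is Eprs, Ears2, Farsa, Farsb, Pars2 or Tarsl2. This gave 38 genes of the 55536 in the gene table. By textbook location 19 act in the cytosol, 17 in mitochondria and 2 (Gars and Kars) in both compartments. The study had 1 group and no second condition. It comprised 2 biological replicates of total RNA from female B6CASTF1/J animals, the F1 hybrid of the inbred strains C57BL/6J and CAST/EiJ, from The Jackson Laboratory. The sample descriptions give an age of 18 to 20 months, while the separate age field is not filled in. Each library was made from 300 ng of RNA with ERCC spike-ins, synthetic RNAs added in known amounts. The labels give both replicates the same donor identifier and different tissue sample identifiers, so separate animals are taken from the word biological alone.

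Most synthetases join 1 amino acid to the tRNAs that read its codons, and the charged tRNA then delivers the amino acid to the ribosome. Cytosolic and mitochondrial protein synthesis use different tRNAs, so most amino acids have a nuclear gene for each compartment, and the mitochondrial enzyme is imported. The enzymes fall into class I and class II by the fold of the catalytic domain, and in animals 8 of the genes supply a multi-synthetase complex in the cytosol. In humans, antibodies against HARS mark an inflammatory muscle disease, variants of YARS2 cause a mitochondrial myopathy with anaemia, and variants of GARS cause a peripheral motor neuropathy.

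Expected counts of genes summed to 43722892 in replicate 2 and 38654555 in replicate 1. The muscle label fitted the defining markers. Acta1, the skeletal muscle actin, had 23051 TPM (a level scaled by transcript length and library) in replicate 2 and 21825 TPM in replicate 1, while the liver genes Alb and Apoa1 had 4 counts or fewer. The libraries stood apart in slow fibre genes, and all 9 on that list were past 2-fold higher in replicate 2. Myh7, the slow myosin heavy chain, had 409 TPM in replicate 2 and 65.8 TPM in replicate 1. Some markers of other cells differed too. As log2 ratios of counts after TMM scaling for library size, replicate 2 over replicate 1, Col1a1 of fibroblasts was at 1.70, Cd68 of macrophages at -1.24, and Pax7 and Myf5 of satellite cells at -0.70 and -0.96. Kdr of endothelium was at -0.65 and Mbp of Schwann cells at -0.61, while Pecam1, also of endothelium, was at -0.12. The 5 skeletal muscle markers lay within 1.5-fold between the libraries. In bulk tissue, fewer cells of a type and less RNA per cell cannot be told apart. Values are RSEM TPM unless kallisto is named, and means carry the SD over both libraries (n = 2).

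Each of the 38 synthetase genes reached 1 TPM in both libraries, as did 10002 nuclear protein-coding genes (45.4%). Together the synthetases held 694 TPM in replicate 2 and 782 TPM in replicate 1. That was 0.152% of the nuclear coding TPM in replicate 2 and 0.168% in replicate 1. The median synthetase had 15.9 TPM in replicate 2 and 15.1 TPM in replicate 1, against 8.09 and 8.81 TPM for the coding genes detected in the same libraries. The counts behind single members ran from 78 to 8753 in replicate 2 and from 68 to 8837 in replicate 1.

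**Figure D1:**
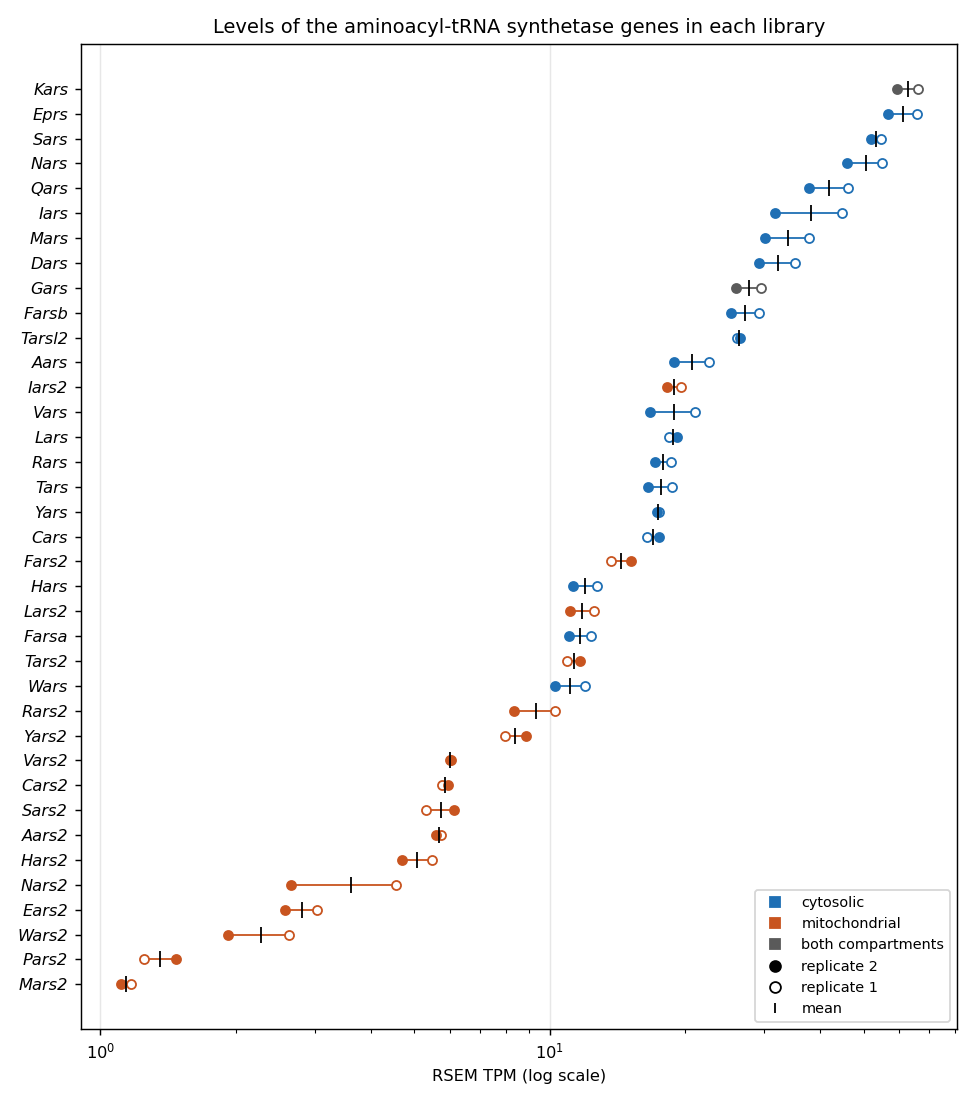
RSEM TPM of 37 synthetase genes on a log axis, with replicate 2 as filled points, replicate 1 as open points and their mean as a tick, coloured by location. The 19 cytosolic genes lie between 11.1 and 61.2 TPM by mean, and 12 of the 16 mitochondrial genes plotted lie below all of them.

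The cytosolic genes filled the upper part of the range. Their median was 19.3 TPM in replicate 2 and 22.6 TPM in replicate 1, against 5.95 TPM and 5.73 TPM for the mitochondrial genes of the same libraries. Cytosolic genes made up 70.8% of the summed synthetase TPM in replicate 2 and 72.3% in replicate 1. Mitochondrial genes made up 16.9% in replicate 2 and 15.5% in replicate 1, and Gars with Kars made up the remaining 12.3% and 12.2%. By mean, 13 of 17 mitochondrial genes lay below every cytosolic gene. The 4 exceptions were Iars2, Fars2, Lars2 and Tars2, which load isoleucine, phenylalanine, leucine and threonine. By kallisto 13 of 17 also lay below every cytosolic gene in each library.

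Kars (ENSMUSG00000031948.14, chr8:111993443-112011323, mm10, minus strand), the lysyl-tRNA synthetase of both compartments, was the most abundant member, at 59.3 TPM in replicate 2 and 66.0 TPM in replicate 1. Eprs (ENSMUSG00000026615.14, chr1:185363044-185428360, plus strand) is 1 protein that charges both glutamate and proline tRNAs. It had 56.7 TPM in replicate 2 and 65.7 TPM in replicate 1, and the means of Kars (62.7 ± 4.68 TPM) and Eprs (61.2 ± 6.35 TPM) differed by less than their spread. Within each library Kars was above Eprs by both tools. By kallisto Kars had 81.35 TPM in replicate 2 and 94.8 TPM in replicate 1, against 69.2 and 85.4 TPM for Eprs. Sars, the seryl enzyme, followed with 51.9 TPM in replicate 2 and 54.8 TPM in replicate 1. Nars, the asparaginyl enzyme, had 46.0 TPM in replicate 2 and 55.1 TPM in replicate 1. The order of Sars and Nars was thus not the same in the 2 libraries, and their means differed by less than the SD of Nars (6.43 TPM).

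Members of the multi-synthetase complex were among the higher genes but did not share 1 level. The 8 genes had a median of 30.95 TPM in replicate 2 and 41.3 TPM in replicate 1, against 17.4 and 19.9 TPM for the 12 cytosolic genes outside it. Within the complex, Kars, Eprs and Qars, the glutaminyl enzyme (42.0 ± 5.83 TPM), were highest by TPM summed over all transcripts of a gene. For Qars, protein-coding transcripts held 31.8% of that TPM in replicate 2 and 27.3% in replicate 1, the smallest share in the complex. By kallisto its coding share was lower still. Whether Qars ranks as high by coding transcripts alone was not tested. Iars for isoleucine (38.3 ± 9.18 TPM), Mars for methionine (34.0 ± 5.44 TPM) and Dars for aspartate (32.3 ± 4.19 TPM) formed a middle group whose members overlapped. Within each library their order was Iars, Mars, Dars by RSEM and the reverse by kallisto. Lars, the leucyl enzyme that also takes part in leucine sensing, had 18.8 ± 0.587 TPM, and Rars for arginine had 17.9 ± 1.05 TPM. By RSEM the libraries of these lowest genes did not overlap with those of the middle group. By kallisto Rars had 29.8 TPM in replicate 2 and 38.05 TPM in replicate 1. Its range then overlapped those of Iars (34.4 and 43.1 TPM), Mars and Dars, although Rars stayed below each of them within a library. Lars, at 16.6 and 22.95 TPM by kallisto, did not overlap with the middle group.

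The scaffold proteins that hold the complex together are encoded by Aimp1, Aimp2 and Eef1e1. Aimp1 had 35.3 TPM in replicate 2 and 35.5 TPM in replicate 1. Aimp2 had 53.3 TPM in replicate 2 and 44.7 TPM in replicate 1. Eef1e1 was far below both, at 5.32 TPM in replicate 2 and 6.76 TPM in replicate 1, which is also below every synthetase of the complex. Kallisto kept Eef1e1 lowest, at 3.37 TPM in replicate 2 and 4.57 TPM in replicate 1, and gave Aimp1 82.7 and 87.6 TPM in those libraries.

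Outside the complex, a run of cytosolic genes had similar levels by RSEM. From Aars, the alanyl enzyme (20.8 ± 2.62 TPM), through Vars for valine, Tars for threonine and Yars for tyrosine to Cars, the cysteinyl enzyme (17.0 ± 0.743 TPM), neighbours in the order differed by less than their spread. Kallisto gave another order. It put Tars (27.8 TPM in replicate 2 and 36.3 TPM in replicate 1) and Cars (27.4 and 34.5 TPM) above Aars (22.5 and 26.9 TPM), Vars and Yars in both libraries. Hars, the histidyl enzyme (11.3 TPM in replicate 2 and 12.7 TPM in replicate 1), and Wars, the tryptophanyl enzyme (11.1 ± 1.20 TPM), were lowest of the single-subunit cytosolic genes. Gars, which serves both compartments, had 26.0 TPM in replicate 2 and 29.5 TPM in replicate 1. By class, the 9 cytosolic class I genes had a median of 17.5 TPM in replicate 2 and 18.6 TPM in replicate 1, and the 9 cytosolic class II genes 25.3 and 26.2 TPM. By kallisto the classes were closer, at 27.4 and 34.5 TPM for class I and 32.0 and 36.3 TPM for class II.

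The cytosolic phenylalanyl enzyme is built from equal numbers of an alpha chain (Farsa) and a beta chain (Farsb), and their messenger RNAs were not equal. Farsb had 25.3 TPM in replicate 2 and 29.3 TPM in replicate 1, whereas Farsa had 11.1 TPM in replicate 2 and 12.4 TPM in replicate 1. Summed per gene, Farsb was therefore 2.29-fold above Farsa in replicate 2 and 2.37-fold above it in replicate 1. By kallisto it was 3.64-fold and 3.27-fold above. For the full-length transcripts Farsb-201 and Farsa-201 the order depended on the tool. By RSEM Farsb-201 had 21.2 TPM in replicate 2 and 23.5 TPM in replicate 1, against 8.93 and 7.60 TPM for Farsa-201. By kallisto Farsb-201 had 2.83 and 10.07 TPM, below Farsa-201 in both libraries. Kallisto put most Farsb TPM in Farsb-206, a shorter coding transcript, and Farsb-204, annotated as a target of nonsense-mediated decay. Of the annotated 31-base words of Farsb transcripts, 8.32% lie on the opposite strand in other genes' transcripts, nearly all in Sgpp2. Whether the counting used strand is not stated.

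Threonine has a second cytosolic gene, Tarsl2, which resembles Tars. Tarsl2 (chr7:65644898-65692091) had 26.6 TPM in replicate 2 and 26.2 TPM in replicate 1, with an SD of 0.297 TPM. Tars (chr15:11382301-11399665) had 16.6 TPM in replicate 2 and 18.7 TPM in replicate 1. Tarsl2 exceeded Tars 1.60-fold in replicate 2 and 1.40-fold in replicate 1 by RSEM. By kallisto the ratio was 1.15 in replicate 2 and 0.953 in replicate 1, so the order depended on the tool in replicate 1.

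Among the mitochondrial genes, Iars2 led with 18.3 TPM in replicate 2 and 19.6 TPM in replicate 1. Fars2 (14.5 ± 1.03 TPM), Lars2 (11.8 ± 1.05 TPM) and Tars2 (11.3 ± 0.537 TPM) came next. Rars2 for arginine (9.32 ± 1.37 TPM) and Yars2 for tyrosine (8.39 ± 0.636 TPM) lay between these and a close group. That group held Vars2, Cars2, Sars2, Aars2 and Hars2, from 6.02 ± 0.00707 TPM for Vars2 to 5.08 ± 0.545 TPM for Hars2. Nars2 for asparagine had 2.66 TPM in replicate 2 and 4.56 TPM in replicate 1. Its counts were 192 in replicate 2 and 201 in replicate 1, so the difference in TPM came with a difference in the RSEM effective length, 2203 bases in replicate 2 and 1522 bases in replicate 1.

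The lowest levels were those of Pars2, the prolyl enzyme, and Mars2, the methionyl enzyme. Pars2 had 1.47 TPM in replicate 2 and 1.25 TPM in replicate 1, from 78 and 68 counts. Mars2 had 1.11 TPM in replicate 2 and 1.17 TPM in replicate 1, from 407 and 380 counts. Mars2 thus had more counts than Pars2 and a lower level per length, and its only annotated transcript is 11294 bases long. Kars exceeded Mars2 53.5-fold in replicate 2 and 56.4-fold in replicate 1, which is the span of the family.

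For 17 amino acids the cytosolic gene could be set against a mitochondrial one in the same library. Lysine and glycine have 1 gene for both compartments, and glutamine has no mitochondrial synthetase. The phenylalanine value used the mean of Farsa and Farsb, and Tarsl2 was left out of the threonine pair. By RSEM the cytosolic value was higher for 17 of 17 amino acids in both libraries. For phenylalanine this rested on the mean of the chains. Farsa alone, at 11.1 TPM in replicate 2 and 12.4 TPM in replicate 1, lay below Fars2, at 15.2 and 13.7 TPM. Farsb lay above Fars2, at 25.3 and 29.3 TPM. By kallisto Farsa was also below Fars2, with 14.3 and 16.85 TPM against 17.5 and 25.8 TPM. The median log2 TPM ratio of cytosolic over mitochondrial was 1.56 in replicate 2 and 1.81 in replicate 1, or 2.94-fold and 3.51-fold.

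The size of this gap differed widely between amino acids. It was widest for proline, with Eprs at 38.6-fold of Pars2 in replicate 2 and 52.6-fold in replicate 1. Methionine followed at 27.1-fold in replicate 2 and 32.3-fold in replicate 1, then glutamate (Eprs over Ears2) at 22.0-fold and 21.6-fold. Asparagine stood at 17.3-fold in replicate 2 and 12.1-fold in replicate 1, and serine at 8.45-fold and 10.3-fold. Since Eprs serves glutamate and proline, both ratios share its value and are not independent. Ears2 also charges the mitochondrial glutamine tRNA with glutamate.

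At the other end the gap was smaller. Phenylalanine had ratios of 1.20 in replicate 2 and 1.52 in replicate 1. Threonine had 1.42 in replicate 2 and 1.72 in replicate 1, and arginine had 2.05 and 1.81. By kallisto the log2 ratios were 1.06 and 1.40 for threonine, 1.24 and 1.18 for arginine, and 0.92 and 0.48 for phenylalanine, in replicate 2 and replicate 1. Leucine had 1.74 in replicate 2 and 1.47 in replicate 1 by RSEM, and kallisto reversed it, with log2 ratios of -1.12 in replicate 2 and -1.296 in replicate 1. Leucine was the exception among the 17 amino acids: by kallisto the cytosolic value was higher for 16, with phenylalanine again taken as the mean of Farsa and Farsb.

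**Figure D2:**
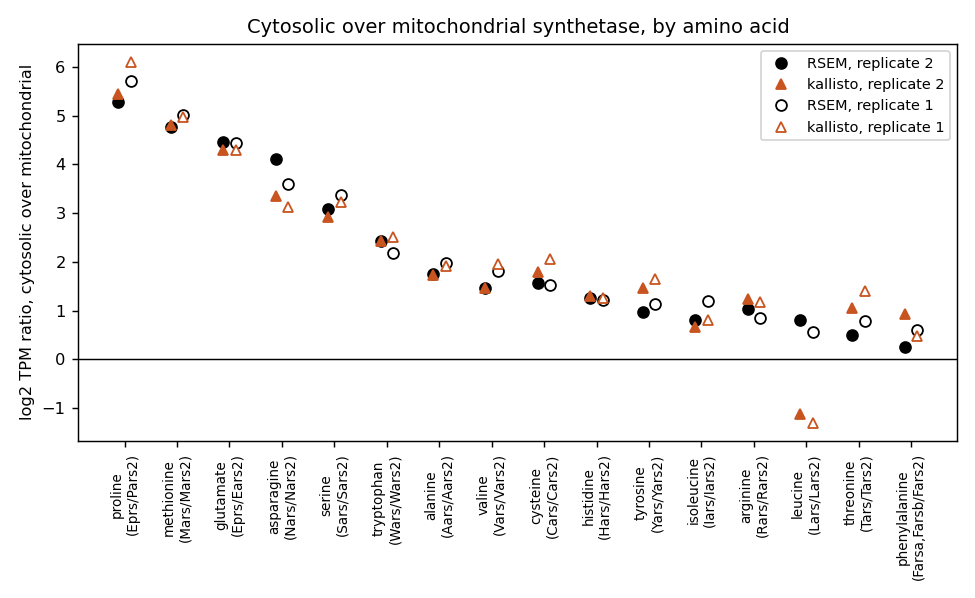
Log2 TPM ratio of the cytosolic over the mitochondrial synthetase for 16 amino acids, by RSEM (circles) and kallisto (triangles), with replicate 2 filled and replicate 1 open. Every RSEM point lies above 0, from proline at 5.27 and 5.72 to phenylalanine at 0.26 and 0.60, and leucine lies below 0 by kallisto.

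Mitochondrial glutamine tRNA is completed by an amidotransferase that converts the glutamate loaded by Ears2. Its subunits Gatb, Gatc and Qrsl1 had 7.33, 10.8 and 6.09 TPM in replicate 2, and 6.25, 14.1 and 4.88 TPM in replicate 1. Each was above Ears2, which had 2.58 TPM in replicate 2 and 3.04 TPM in replicate 1. Mtfmt, which formylates the initiator methionine tRNA charged by Mars2, had 2.05 TPM in replicate 2 and 2.22 TPM in replicate 1. Per length this was also above its synthetase. By counts the order was the reverse, with 133 and 119 for Mtfmt against 407 and 380 for Mars2, whose transcript has 11294 bases.

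Several synthetase genes are known targets of ATF4, a transcription factor induced when amino acids run short, which pairs with C/EBP factors at a composite response element. RefSeq promoter windows of 300 bases (GRCm38.p6, 250 before to 50 after a start site) were matched to 27 of the 38 members. Nars, Vars, Lars, Rars, Cars, Fars2, Hars, Wars, Hars2 and Pars2 were among those not matched. The element, searched as TGATGNAA on both strands, was found in 5 of 27 windows (18.5%), against 1.93% of 7680 windows of coding genes at or above 1 TPM and 3.97% of all 32851 windows. The 5 windows are shown because the match set them apart from the other members. Each is printed 5′ to 3′ in the direction of its gene, with the element in capitals.
Iars chr13:49681880-49682179 plus strand: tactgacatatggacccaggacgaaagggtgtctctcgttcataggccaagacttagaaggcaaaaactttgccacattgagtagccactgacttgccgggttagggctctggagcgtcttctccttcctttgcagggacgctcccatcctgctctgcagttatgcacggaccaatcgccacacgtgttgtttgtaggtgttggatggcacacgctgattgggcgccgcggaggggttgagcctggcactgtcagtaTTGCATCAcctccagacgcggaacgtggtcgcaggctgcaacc
Gars chr6:55037751-55038050 plus strand: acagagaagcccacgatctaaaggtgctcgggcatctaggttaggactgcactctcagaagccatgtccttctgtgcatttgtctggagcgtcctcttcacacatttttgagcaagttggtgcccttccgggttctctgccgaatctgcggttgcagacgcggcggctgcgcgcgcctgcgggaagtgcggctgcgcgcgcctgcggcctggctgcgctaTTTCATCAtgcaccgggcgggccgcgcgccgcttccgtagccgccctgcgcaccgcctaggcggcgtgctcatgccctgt
Aars chr8:111033592-111033891 plus strand: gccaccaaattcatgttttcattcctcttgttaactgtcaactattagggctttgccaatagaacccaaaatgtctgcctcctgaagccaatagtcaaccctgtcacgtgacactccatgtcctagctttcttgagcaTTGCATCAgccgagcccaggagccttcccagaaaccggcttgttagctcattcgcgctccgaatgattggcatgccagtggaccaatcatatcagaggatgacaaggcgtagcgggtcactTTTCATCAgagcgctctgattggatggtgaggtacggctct
Tars chr15:11399609-11399908 minus strand: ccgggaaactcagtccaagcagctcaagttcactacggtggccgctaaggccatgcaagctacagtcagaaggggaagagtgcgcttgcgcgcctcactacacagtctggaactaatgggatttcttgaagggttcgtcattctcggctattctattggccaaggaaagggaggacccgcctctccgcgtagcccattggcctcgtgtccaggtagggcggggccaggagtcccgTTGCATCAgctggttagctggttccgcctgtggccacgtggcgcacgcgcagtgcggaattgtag
Yars chr4:129189653-129189952 plus strand: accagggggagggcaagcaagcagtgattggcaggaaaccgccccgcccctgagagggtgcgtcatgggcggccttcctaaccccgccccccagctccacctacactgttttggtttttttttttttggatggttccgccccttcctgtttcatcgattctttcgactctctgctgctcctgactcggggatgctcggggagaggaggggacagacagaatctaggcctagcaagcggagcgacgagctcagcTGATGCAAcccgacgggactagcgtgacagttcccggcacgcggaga

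Of the matched windows, 4 of 12 cytosolic genes (Iars, Aars, Tars and Yars) and 0 of 13 mitochondrial genes held the element, and Gars, of both compartments, held it too. Counting the start site as position 0, the element began at position 7 in Iars, -30 in Gars, -15 in Tars and 3 in Yars. Aars held a pair of them, at -112 and 9. These lie on the reverse strand in all but Yars, so they read there as TTGCATCA or TTTCATCA. The E-box CACGTG, a palindrome, occurred in 5 of 27 windows against 11.0% of expressed coding windows, and 3 windows (Iars, Aars and Tars) held both motifs without overlap.

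The core GCATGCGC of the element bound by NRF1, a regulator of nuclear genes for mitochondria, showed the opposite split. It was in 3 of 13 mitochondrial windows (Rars2, Vars2 and Wars2) and 0 of 12 cytosolic windows, against 5.99% of expressed coding windows. The ETS motif CCGGAAG was in 9 of 27 windows (33.3%), against 20.7%. Synthetase windows had a median GC content of 57.7%, against 61.7% for expressed coding genes. All of these are counts of letters in a window and do not show that a factor binds, and the split by location was not tested.

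The amino acid response itself was read from a list of 25 of its genes, of which 21 had enough counts. Atf4 messenger RNA was at 61.6 TPM in replicate 2 and 83.9 TPM in replicate 1. Asns, the asparagine synthetase that ATF4 induces, was low at 0.730 TPM in replicate 2 and 0.800 TPM in replicate 1. Trib3, another ATF4 target, had 15 counts in replicate 2 and 14 in replicate 1. Eif2ak4, the kinase GCN2 that senses uncharged tRNA, had 1.90 TPM in replicate 2 and 2.10 TPM in replicate 1. Chac1, an ATF4 target that degrades glutathione, had 22.2 TPM in replicate 2 and 32.9 TPM in replicate 1, so the response genes did not share 1 level.

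Between the libraries the synthetases stayed close. Ratios are log2 values of replicate 2 over replicate 1 after TMM scaling, and a gene past 2-fold was called. None of the 38 members was past 2-fold or past 1.5-fold, against 4.64% past 2-fold and 13.7% past 1.5-fold among the 12969 genes tested. The members ran from -0.27 for Tars to 0.52 for Fars2, with a median of -0.01, and the median of all genes tested was -0.00094. With 1 library a side these ratios have no replicate check, and the 95% intervals are exact conditional binomial intervals that cover counting error only.

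On the TMM scale the cytosolic median was below 0 and the mitochondrial median above it, and this difference was not tested. The cytosolic median was -0.04, with 15 of 19 genes below 0, against 50.2% of all genes tested. The mitochondrial median was 0.10, with 13 of 17 genes above 0, and 7 of the 8 complex genes were below 0. By kallisto counts 13 of 19 cytosolic genes were below 0 and 13 of 17 mitochondrial genes above it. In the complex, Kars and Qars were both at -0.01 by RSEM. By kallisto Kars (0.02), Qars (0.03) and Rars (0.006) were above 0. Scaled by spike-in totals instead, all ratios shifted down, with a median of -0.22 over all genes tested. On that scale 19 of 19 cytosolic genes and 13 of 17 mitochondrial genes were below 0, against 76.4% of all genes tested, so the mitochondrial share was near the background. The medians were -0.27 for cytosolic and -0.13 for mitochondrial genes, and the sign of the mitochondrial median depends on the scaling.

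The slow fibre genes and the mitochondrial ribosomal proteins moved beside these ratios. The 9 slow fibre genes summed to 2580 TPM in replicate 2 and 501 TPM in replicate 1, with a median log2 ratio of 2.53. The 78 mitochondrial ribosomal protein genes had a median of 0.21 on the TMM scale, with 73 above 0. The part of fibre type, of the other cell types above or of mitochondrial content in the synthetase ratios was not tested.

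Of the 38 intervals, 12 excluded 0, against 46.4% of the intervals of all genes tested, whose width varies with their counts. The 7 below 0, against 22.3% of all genes, were all cytosolic: Tars, Iars, Vars, Yars, Dars, Nars and Eprs. Tars had 1260 counts in replicate 2 and 1487 in replicate 1 (log2 ratio -0.27, interval -0.38 to -0.16). Iars had 3455 counts in replicate 2 and 3914 in replicate 1 (-0.21, -0.28 to -0.14). These were the cytosolic genes farthest below 0, and the fold in each was under 1.5.

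The 5 intervals above 0, against 24.1% of all genes, were those of Tarsl2 and of 4 mitochondrial genes, among them Fars2, Vars2 and Sars2. Fars2 (ENSMUSG00000021420.13, chr13:36117412-36726280) had 639 counts in replicate 2 and 436 in replicate 1 (0.52, interval 0.34 to 0.70). Vars2 had 460 counts in replicate 2 and 327 in replicate 1 (0.46, 0.26 to 0.67). Tarsl2 had 2694 counts in replicate 2 and 2338 in replicate 1 (0.17, 0.09 to 0.26), while Tars was on the other side of 0. Under spike-in totals Tarsl2 moved to -0.05 and the other members of this set stayed above 0.

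**Figure D3:**
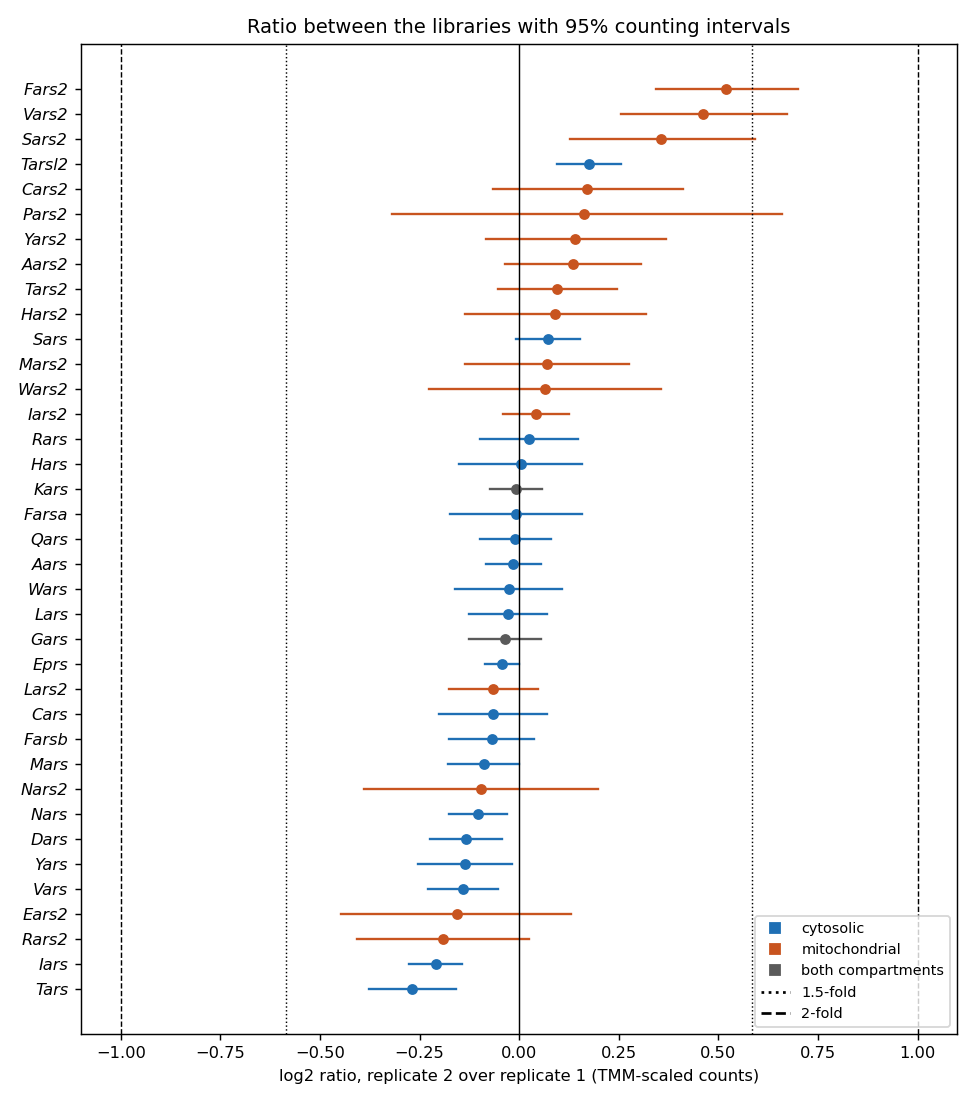
Log2 ratio of replicate 2 over replicate 1 for 37 synthetases with 95% counting intervals, coloured by location, with dotted lines at 1.5-fold and dashed lines at 2-fold. All points lie between -0.27 (Tars) and 0.52 (Fars2), inside the 1.5-fold lines.

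The deposited TPM also carries the effective length and gave other ratios for some members. By TPM, 28 of 38 members were lower in replicate 2. Vars2 had 6.02 TPM in replicate 2 and 6.01 TPM in replicate 1, although its counts differed. Iars was at a log2 TPM ratio of -0.49, farther from 0 than its count ratio. Nars2 was at -0.78 by TPM and -0.09 by counts.

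No listed gene that acts beside the synthetases was past 1.5-fold. The 5 proofreading factors remove wrongly charged amino acids or act with the synthetases that do. All 5 were below 0, against 50.2% of all genes tested. Their median was -0.13, and Ankrd16, which works with the alanyl enzyme, was lowest at -0.38. By kallisto Aarsd1, which clears mischarged alanine tRNA, was at 0.02. Of the 11 tRNA maturation genes 6 were below 0, with a median of -0.01. Among 4 genes of selenocysteine synthesis, whose amino acid is built on a tRNA first charged with serine by Sars, the median was 0.13. The scaffold gene Aimp2 was at 0.41 and Aimp1 at 0.14, or 0.19 and -0.08 under spike-in totals. The 4 genes of the mitochondrial amidotransferase and formyltransferase had a median of 0.21, from -0.23 for Gatc to 0.45 for Qrsl1, and Gatb was at 0.29. In that list the counting intervals of Qrsl1, Gatb and Gatc excluded 0, and that of Mtfmt did not, against 46.4% excluding 0 among all genes tested. Under spike-in totals Qrsl1 was at 0.22, Gatb at 0.07 and Gatc at -0.45.

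In the amino acid response list the median was 0.08. Ddit4, an inhibitor of mTORC1 that stress and glucocorticoids also induce, was the 1 gene of 21 past 2-fold. Among all 12969 genes tested the share past 2-fold was 4.64%, so this count was near the background. Ddit4 had 88.6 TPM in replicate 2 and 6.40 TPM in replicate 1, a log2 ratio of 3.93. Stc2, a secreted ATF4 target, was next at 0.99. Atf4 was at -0.30 and Chac1 at -0.42, on the side opposite to Ddit4. Of the synthetases whose windows held the element, none was past 1.5-fold. Iars was at -0.21, Gars at -0.04, Aars at -0.01, Tars at -0.27 and Yars at -0.14, and the intervals of Iars, Tars and Yars lay below 0.

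The level of a synthetase depended on the quantifier, and for Lars2 by more than for any other member. Kallisto TPM were 1.295-fold of RSEM TPM in replicate 2 and 1.38-fold in replicate 1 at the median of detected coding genes, and 1.24-fold and 1.34-fold at the median synthetase. Lars2 (ENSMUSG00000035202.8, chr9:123366927-123462666) had 36.0 TPM in replicate 2 and 56.3 TPM in replicate 1 by kallisto. By RSEM it had 11.1 TPM in replicate 2 and 12.6 TPM in replicate 1, so kallisto was 3.25-fold and 4.49-fold of RSEM in those libraries. Only 0.340% of detected coding genes in replicate 2 and 0.230% in replicate 1 had a ratio as high.

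The excess in Lars2 lay in transcripts other than the full-length one. Lars2-201, with 902 codons, had 9.75 TPM in replicate 2 and 12.2 TPM in replicate 1 by kallisto, against 7.31 and 9.74 TPM by RSEM. Lars2-209, annotated as a target of nonsense-mediated decay, had 12.4 TPM in replicate 2 and 41.7 TPM in replicate 1 by kallisto, against 3.05 and 2.26 TPM by RSEM. Lars2-205, a retained intron, had 12.6 TPM in replicate 2 and 0 TPM in replicate 1 by kallisto. Of the 31-base words of Lars2 transcripts, 0.869% occur on the same strand in other genes' transcripts. The kallisto ratio between libraries was also far from that of RSEM, at -0.90 against -0.06.

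**Figure D4:**
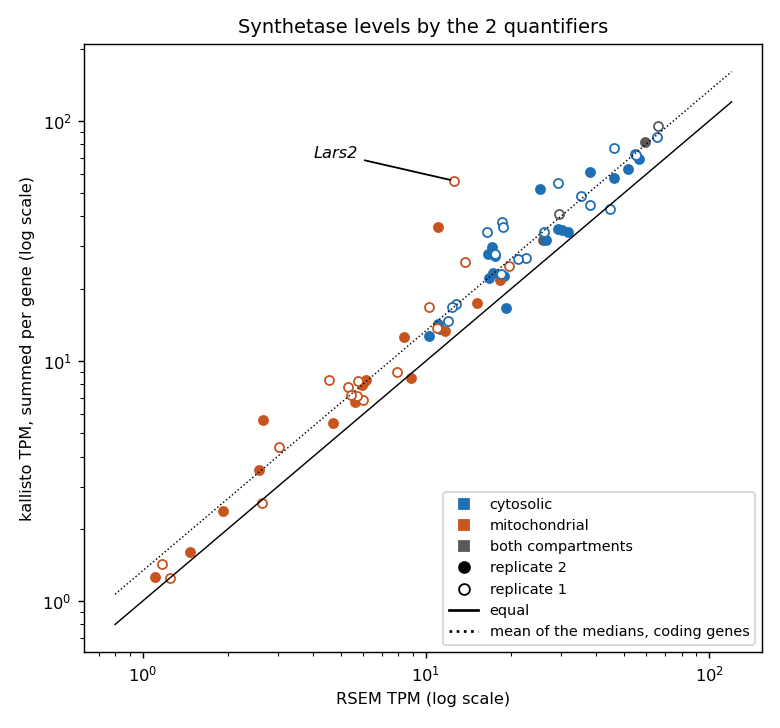
Kallisto TPM summed per gene against RSEM TPM for 37 synthetases, both axes log scaled, with replicate 2 filled and replicate 1 open. The solid line marks equality and the dotted line the mean over both libraries of the median ratio in coding genes, and Lars2 lies farthest above both.

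Kars makes its compartment forms from 1 gene by choice of transcript. Kars-201 encodes 595 codons, and Kars-202 and Kars-203 encode 624. In human, the longer protein is the mitochondrial form. By RSEM the transcripts of 595 codons took 61.1% of Kars TPM in replicate 2 and 58.4% in replicate 1, and those of 624 codons took 38.8% and 41.4%. By kallisto the transcripts of 624 codons took 83.9% in replicate 2 and 83.5% in replicate 1, and Kars-201 was listed at or close to 0 in both libraries. The 2 tools thus gave different ratios of the forms, and each tool gave nearly the same ratio in both libraries. Gars has 1 annotated coding transcript, Gars-201, so its forms could not be told apart in these values.

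Across the family the most abundant transcript took a median of 71.1% of its gene's TPM in replicate 2 and 71.0% in replicate 1. Ranked by the mean share over both libraries, it was annotated as protein coding in 35 of 38 genes, was the same in both libraries in 33, and was the same by kallisto in 30. Cytosolic genes had a median top share of 80.8% in replicate 2 and 80.1% in replicate 1, and mitochondrial genes 66.0% and 65.3%. The median share in protein-coding transcripts was 93.5% in replicate 2 and 86.6% in replicate 1. Annotated transcripts per gene ran from 1 (Mars2) to 34 (Qars).

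By mean share over both libraries, the genes led by a transcript that is not protein coding included Qars and Nars2. Qars-231, a nonsense-mediated decay transcript, took 49.8% in replicate 2 and 54.8% in replicate 1 by RSEM, but 21.8% and 9.09% by kallisto. In Nars2 the RSEM lead changed between the libraries. The processed transcript Nars2-204 took 19.5% in replicate 2 and 43.2% in replicate 1, and the coding transcript Nars2-202 took 42.3% and 13.2%. By kallisto Nars2-204 led in both. The coding share of Nars2 was 78.3% in replicate 2 and 37.7% in replicate 1 by RSEM, and 39.5% and 29.6% by kallisto.

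The coding shares of Vars2 and Wars2 also differed between the libraries by RSEM, and less so by kallisto. Vars2-201, the only coding transcript of Vars2, took 43.5% in replicate 2 and 17.6% in replicate 1 by RSEM, and 29.9% and 27.7% by kallisto. Wars2 had 95.3% of its TPM in coding transcripts in replicate 2 and 55.1% in replicate 1, where the retained intron Wars2-202 was at 34.2%. By kallisto the coding share of Wars2 was 98.9% in replicate 2 and 67.3% in replicate 1. Ears2, with 194 counts in replicate 2 and 212 in replicate 1, had 87.6% and 83.9% in coding transcripts by RSEM, and Eprs, with the most counts, had 96.1% and 93.4%.

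**Figure D5:**
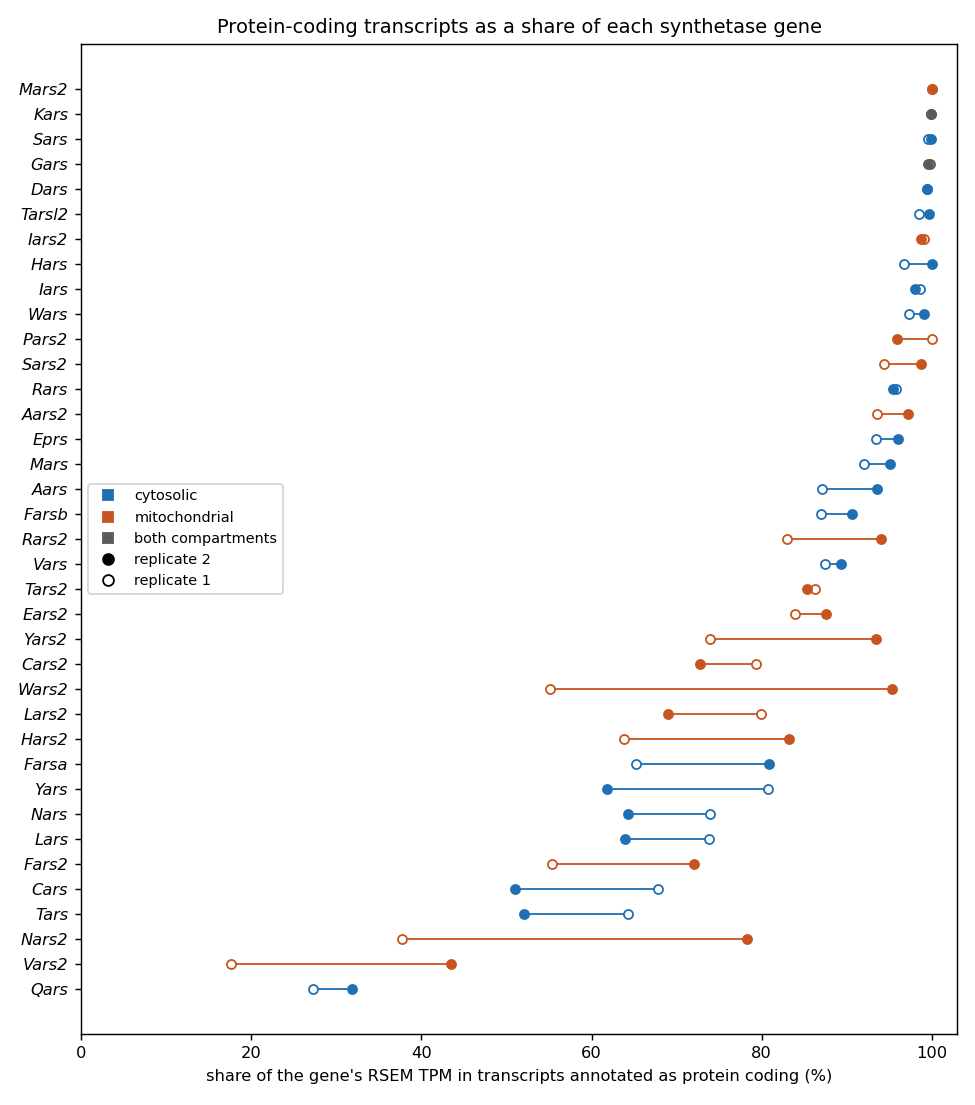
Share of the RSEM TPM of 37 synthetase genes in transcripts annotated as protein coding, with replicate 2 filled and replicate 1 open, coloured by location. Mars2, Kars and Sars lie at or close to 100%, Qars and Vars2 are lowest, and the points of Nars2 and Wars2 are far apart.

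Overlapping genes can share reads, and exons of 15 of the 38 genes overlap another gene in the annotation, 14 of them on the opposite strand. Hars and Hars2, the cytosolic and mitochondrial histidyl genes, overlap each other head to head on chromosome 18, and Mars overlaps Ddit3, an ATF4 target. Iars2 shared the most words with a gene on the opposite strand, with 23.5% of its 31-base words, mostly in Rab3gap2. On the same strand, 14.7% of the words of Iars occur elsewhere, nearly all in Gm4849, and 13.9% of those of Aars, nearly all in the overlapping gene Exosc6. The labels name spike-ins for stranded libraries, and whether strand was used in counting is not stated, so the levels of these genes are uncertain by an amount that was not tested.

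By their starts, 5 members lie back to back with a coding neighbour within 1000 bases, or 13.2%, against 6.77% of all coding genes. Among them, the neighbour was Terf2ip for Kars at 75 bases, S100pbp for Yars at 33 bases, and Orc3 for Rars2 at 13 bases. For Sars2 it was Mrps12, which encodes a mitochondrial ribosomal protein, at 172 bases.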

How the data were processed

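Total RNA of 2 gastrocnemius libraries of 1 group was used. Expected counts (RSEM) and estimated counts (kallisto) were deposited by the authors per gene or transcript, on mm10 with GENCODE M21 per the deposited notes. No source used here names the aligner or the tool versions. TPM and posterior mean TPM were deposited by the authors, and kallisto TPM was summed per gene here. Posterior SDs of the count, a score column per the file headers, stayed at or below 0.56 counts for members. The 26248 tRNA rows held 2 counts in replicate 2 and 1 in replicate 1, below the floor of 3 counts, and were left out with spike-ins.

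Rounded expected counts were filtered to a sum over both libraries of 50 or more and scaled by TMM in edgeR 4.0.16 (R 4.3.3), and log2 CPM used a prior count of 2. Reads are not independent molecules, so the 95% intervals cover counting error only. The deposited TPM has no pseudocount added. With 1 group no p-value was computed. Only the step that gives the ratios between the libraries was tested on simulated counts. DESeq2 1.42.0 size factors, upper quartile factors, total counts, spike-in totals, other filters and priors, kallisto values, posterior means and leaving out each library were the alternatives. Promoter windows came from RefSeq, taking the start nearest to the most abundant transcript and within 1000 bases. Python 3.11.15, pandas 2.3.3 and numpy 2.4.6 did the rest. All members enter the counts and medians, 1 is not reported here by name or in the plots, and other genes come from short lists. Members and lists were chosen with earlier results of these data known.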

Additional observations from a re-analysis of the deposited data

How the results depend on the processing

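The count of 38 synthetases at or above 1 TPM was the same by kallisto, by posterior mean TPM, at a minimum of 0.5 TPM and without either replicate, and it was 32 at 5 TPM. No member was past 2-fold under any of 9 other scalings, filters, priors or estimates. The median pair ratio of 1.68 (log2) lay between 1.55 and 1.84 in all alternatives run. By kallisto the median TPM was 33.0 for cytosolic genes and 8.15 for mitochondrial genes, against 20.9 and 5.84 by RSEM, and posterior mean TPM gave 6.05 for the mitochondrial genes. Without replicate 1 or 2 these medians ran from 19.3 to 22.6 and from 5.73 to 5.95. The median log2 ratio between the libraries was -0.04 for cytosolic genes, -0.19 by total count alone, -0.27 by spike-in totals and -0.21 by deposited TPM. For mitochondrial genes it was 0.10, and -0.052, -0.13 and -0.034 under those settings, so its sign turned. Total counts and spike-in totals change the scaling of all genes together, so each ratio moved down by nearly the same amount. Deposited TPM also carries the effective length. Which scaling is closest to the tissue was not tested. By total count 21 of 38 single ratios left their counting interval, by spike-in totals 30, by deposited TPM 26, by kallisto 1 (Lars2), and under the other settings 0. The median top transcript share was 65.6% by kallisto, against 71.1%. No paired analysis was possible because the study has 1 group. Pars2, with 78 and 68 counts, had the widest counting interval, from 0.801-fold to 1.58-fold, so differences inside it were not detectable at this depth.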
